A study of Homo sapiens with 6 samples.

Results

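The genes described here are 33 targets of the androgen receptor other than the kallikreins, out of 62696 gene rows in the count tables. They were chosen by name as genes whose transcription is known to respond to androgen in prostate cells, and each symbol was matched to its Ensembl identifier. All 33 were found and all 33 passed the filter on low counts. HERC3 is a name shared by 2 identifiers, and the protein-coding one was used.

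RNA was sequenced from C4-2, an established human line of castration-resistant prostate cancer, to ask what loss of CDK12 does to such cells. One group was 3 libraries labelled CDK12KO, from C4-2 cells in which the kinase gene CDK12 was targeted with CRISPR-Cas9. Its control was 3 libraries labelled VEC, from C4-2 cells of the vector control line with a WT genotype label. Cells of both groups grew untreated in RPMI1640 with 10% fetal bovine serum, so whatever androgen the serum held was present in both. The labels do not say whether the knockout line is 1 clone or a pool, nor whether libraries came from separate cultures, so each p-value rests only on library-to-library spread, part or all of which may be technical.

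The androgen receptor is a transcription factor of the nuclear receptor family. Androgen binding releases it from HSP90 chaperone complexes, and in luminal prostate cells it binds mostly distal enhancers together with the pioneer factor FOXA1. Its targets include secreted prostate proteins, enzymes of lipid, polyol and prostaglandin metabolism, transcription factors and regulators of its own chaperone cycle. Several of these targets also respond to the glucocorticoid and mineralocorticoid receptors, which recognise the same DNA element.

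Counted reads in genes ran between 18333400 and 21590817 in CDK12KO libraries and between 16617644 and 18178467 in VEC libraries. Levels within a gene are given as CPM, counts relative to the TMM-scaled library total, and levels compared between genes as TPM, which also divides by exonic length. CDK12KO library 2 stood apart. Its log2 CPM correlated with the other libraries at 0.916 to 0.950 across genes, against 0.977 to 0.990 among the other 5, and its TMM factor was 0.737, against 1.04 to 1.10. Genes were therefore tested in a fit of all 6 libraries (the 6-library fit) and in a fit without that library (the 5-library fit). CDK12 RNA itself stood at 60.8, 56.9 and 56.5 CPM in CDK12KO libraries and at 60.2, 48.0 and 57.1 CPM in VEC libraries (6-library log2 fold change 0.08 ± 0.13 SE, edgeR adjusted p = 0.709), and gene-level counts cannot check a frameshift knockout. Luminal markers were abundant, with the 9 listed genes summing to 3081 to 4372 CPM in CDK12KO and 3478 to 3675 CPM in VEC libraries. Of the other cell types' markers, the basal TP63, the stromal DCN and the lymphocyte CD3E and MS4A1 were at 0 counts in all 6 libraries. The 7 listed stromal genes summed to 25.6 to 32.6 CPM in CDK12KO and 22.8 to 25.5 CPM in VEC libraries, mostly COL1A1 at 21.1 to 28.4 CPM in CDK12KO and 19.5 to 21.1 CPM in VEC libraries. COL1A2 went the other way, with 0 counts in every CDK12KO library and 22, 20 and 10 counts in VEC libraries, and was called lower in the 5-library fit (edgeR adjusted p = 0.000704; 0.0743 in the 6-library fit). The 6 basal genes summed to 2.50 to 5.41 CPM in CDK12KO and 1.59 to 2.69 CPM in VEC libraries. The 6 immune genes summed to 0.0629 to 0.236 CPM in CDK12KO and 0.112 to 2.46 CPM in VEC libraries, the highest being VEC library 1 with 44 counts of LYZ. Their part in the results was not tested. In bulk RNA, fewer cells expressing a gene and less RNA per cell cannot be told apart.

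Most of these targets were lower in the CDK12 knockout line, by modest amounts. In the 5-library fit 17 of 33 fell, 1 rose and 15 did not pass an edgeR adjusted p of 0.05. Over all 16339 genes tested in that fit 8.88% were called lower and 10.2% higher. The share of members called lower (51.5%) lay above the background share while the share called higher did not. Members were chosen with earlier results of these data known, so comparisons with all genes here and below are descriptions, not tests. In either direction 19.1% of all genes were called. These shares over all genes are also the background of the 5-library counts by role group and list given below. In the 6-library fit only SLC45A3 passed, lower, where 0.177% of 15783 tested genes were called lower, 0.418% higher and 0.596% in either direction. That count rested on every library: it was 0 when VEC library 1, 2 or 3 or CDK12KO library 1 or 3 was left out and 17 when CDK12KO library 2 was left out. No member rose in the 6-library edgeR fit, where DESeq2 called 1 higher and limma-voom 0. At an unadjusted p under 0.05, 12 members were lower and 1 higher with all 6 libraries (8.69% of all genes lower, and 2048 of 15783 higher), and 19 were lower and 2 higher with 5 (15.7% and 16.0% of all genes).

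The direction did not depend on which of these fits was used. The fitted log2 fold change was below 0 for 27 of 33 members in both fits (81.8%), against 50.0% of all tested genes in the 6-library fit and 51.7% in the 5-library fit. The median was -0.30 with all 6 libraries and -0.28 with 5, beside 0.00 and -0.01 over all tested genes. In 20 members (60.6%) every CDK12KO library lay below every VEC library, a pattern that 19.0% of all tested genes had. In 2 members (6.06%), TSC22D3 and MED28, every CDK12KO library lay above, a pattern of 20.4% of tested genes. Leaving out CDK12KO library 2, the same counts were 23 below (69.7%) and 3 above (9.09%), against 23.1% and 24.0% of tested genes. Of all counted reads, without TMM scaling, the 33 genes together took 0.410%, 0.270% and 0.400% in CDK12KO libraries 1 to 3. In VEC libraries 1 to 3 they took 0.544%, 0.497% and 0.541%. In TMM-scaled CPM the 33 genes summed to 3663 to 3931 in CDK12KO and 4802 to 5062 in VEC libraries.

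**Figure D1:**
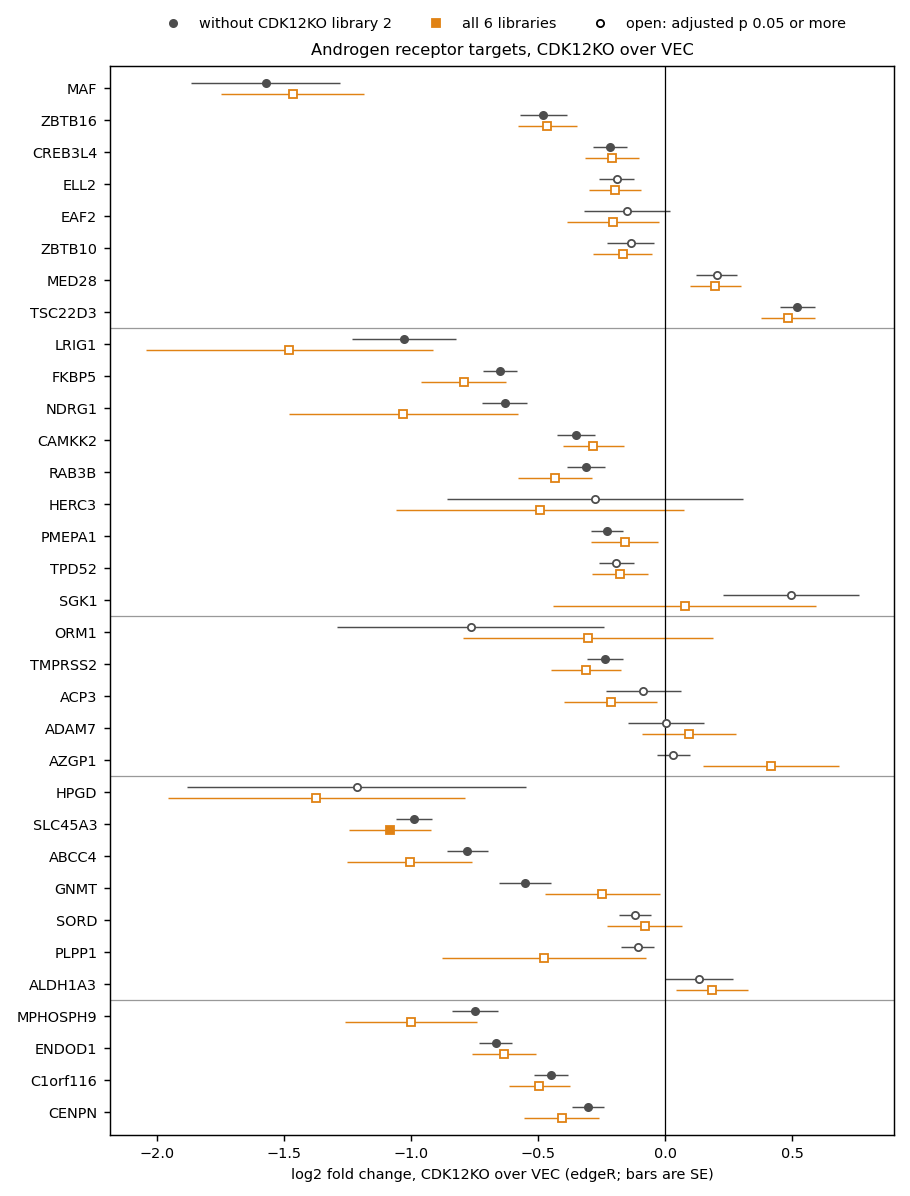
Log2 fold change of each of the 33 androgen receptor targets, CDK12KO over VEC, on the horizontal axis, from the edgeR fit without CDK12KO library 2 (circles) and with all 6 libraries (squares), with bars for the SE and filled symbols for an adjusted p under 0.05. Filled circles to the left of 0 are the 17 members that fell in the 5-library fit, TSC22D3 is the filled circle to the right, and SLC45A3 is the only filled square.

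CDK12KO libraries 1 and 3 gave nearly the same picture. Their shifts from the VEC mean differed by a median of 0.08 on the log2 scale, and by under 0.25 in 29 of 33 genes. CDK12KO library 2 lay farther from the VEC mean than both of them in 20 members. The median shift over the 33 genes was -0.24, -0.49 and -0.28 in CDK12KO libraries 1, 2 and 3, beside 0.00, -0.03 and 0.01 over all tested genes. Of the 18 members called in the 5-library fit, 17 (94.4%) were on the called side of the VEC mean in CDK12KO library 2, which that fit did not use, and GNMT was the exception. Over all genes called in that fit the same share was 94.5%, close to the members' share. The VEC libraries behind both shares were also used in that fit, so the shares are not an independent check.

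**Figure D2:**
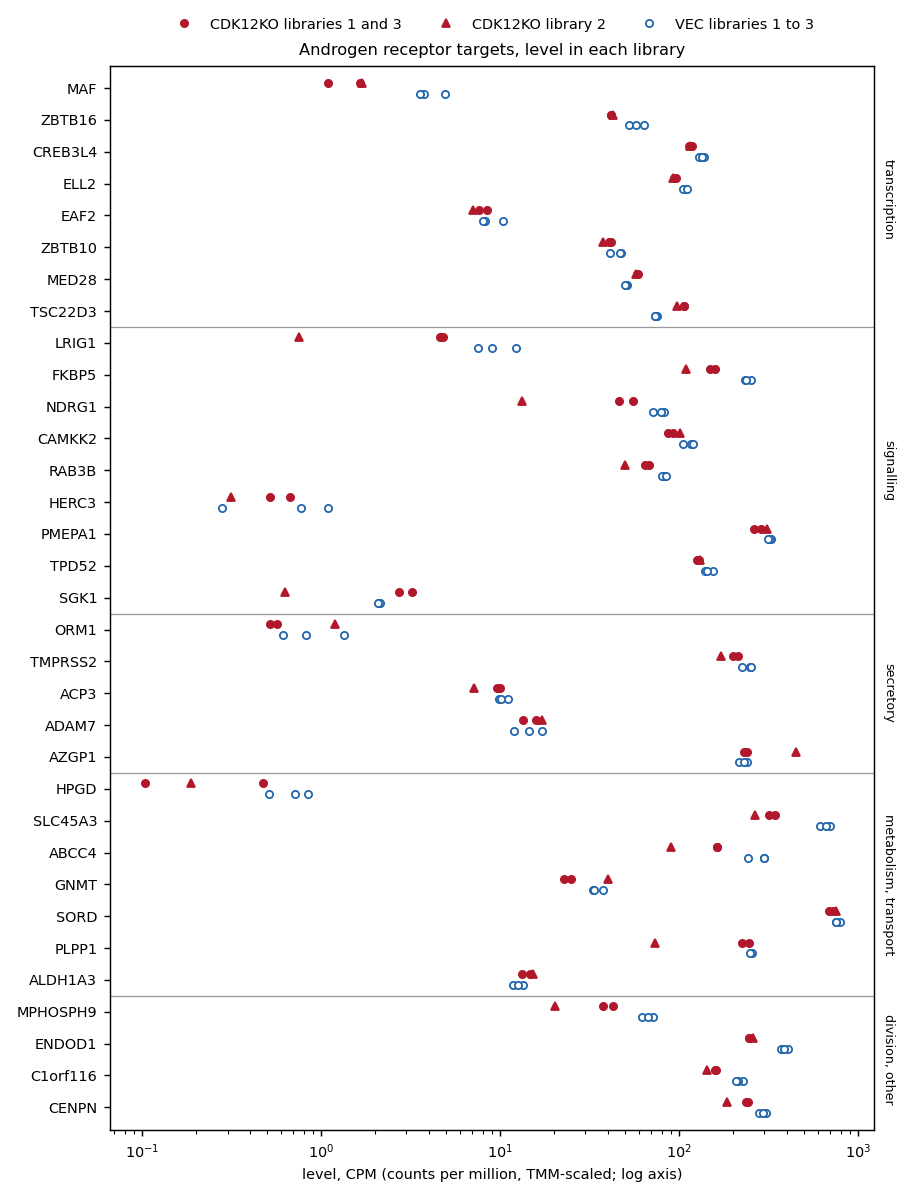
Level of each of the 33 androgen receptor targets in every library, in CPM on a log axis, grouped by role, with CDK12KO libraries as filled symbols (library 2 a triangle) above the open circles of the VEC libraries. Filled symbols lie left of the open circles in most rows, and library 2 lies far left of the other CDK12KO libraries in LRIG1, NDRG1, SGK1 and PLPP1 and far right of them in AZGP1.

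Among metabolic enzymes and transporters 3 of 7 fell and 0 rose in the 5-library fit, and the fall was largest in SLC45A3, which was also the member with the most RNA per length. SLC45A3 encodes prostein, a prostate membrane protein of the sugar transporter type whose promoter is a known fusion partner of ETS factors in prostate cancer. It lies on chromosome 1 from 205657851 to 205680459 (ENSG00000158715.6; coordinates here are GRCh38 by the GENCODE 29 annotation) and its level in VEC libraries was 570 ± 63.1 TPM (SD, n = 3), the 179th highest of all genes. Its 3 CDK12KO libraries held 344, 266 and 318 CPM, against 693, 612 and 658 CPM in the VEC libraries. The ranges were far apart. The fitted CDK12KO level was 0.504 of the VEC level in the 5-library fit. On the log2 scale the change was -1.08 ± 0.16 in the 6-library fit (edgeR adjusted p = 0.0440, 3.17e-09 to 0.285 over its alternatives) and -0.99 ± 0.07 in the 5-library fit (edgeR adjusted p = 1.51e-08, at most 2.00e-06 over its alternatives).

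ABCC4 (chromosome 13, 95019829 to 95301475) encodes MRP4, an efflux pump for cyclic nucleotides, prostaglandins and steroid conjugates, and has the longest span of the 33 genes at 281.6 kb. CDK12KO libraries held 163, 90.3 and 164 CPM, and VEC libraries 298, 244 and 296 CPM. All CDK12KO values lay below all VEC values, with libraries 1 and 3 close together and library 2 lower still. The log2 fold change was -0.78 ± 0.08 in the 5-library fit (edgeR adjusted p = 2.29e-06) and -1.01 ± 0.25 in the 6-library fit (edgeR adjusted p = 0.143). With all 6 libraries DESeq2 called ABCC4 lower, as did edgeR with no filter on low counts, while limma-voom did not.

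GNMT encodes glycine N-methyltransferase, which sets the balance of S-adenosylmethionine and makes sarcosine. It held 22.7, 40.3 and 24.9 CPM in CDK12KO libraries and 33.2, 37.5 and 33.5 CPM in VEC libraries. Libraries 1 and 3 of the knockout were below all VEC libraries and library 2 was above all of them. GNMT fell in the 5-library fit (-0.55 ± 0.10, edgeR adjusted p = 0.000956) and had -0.25 ± 0.23 in the 6-library fit (edgeR adjusted p = 0.489).

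The other 4 genes of this group did not pass in either fit. SORD, the polyol pathway enzyme sorbitol dehydrogenase and at 399 ± 28.9 TPM in VEC libraries the third most abundant member, held 725, 754 and 687 CPM in CDK12KO libraries and 789, 750 and 753 CPM in VEC libraries, which overlapped. PLPP1, a lipid phosphate phosphatase and the member with the second highest level (403 ± 17.8 TPM in VEC libraries), held 246, 73.5 and 225 CPM in CDK12KO libraries and 252, 256 and 250 CPM in VEC libraries. Only CDK12KO library 2 was far below for PLPP1. Reads over an opposite-strand neighbour are left out of PLPP1's count, and the 2 stranded columns summed to 2.12 times the count used here. The libraries do not separate strands, so that sum can hold the neighbour's reads as well as PLPP1's. With that sum PLPP1's log2 fold change was 0.12 in the 6-library fit in place of -0.48, with neither value called. Which gene's reads gave the difference was not tested. ALDH1A3, which makes retinoic acid, had overlapping groups and log2 fold changes of 0.19 ± 0.14 and 0.13 ± 0.13 in the 6-library and 5-library fits, and its 2 stranded columns summed to 2.70 times its count. With that sum, which can likewise hold a neighbour's reads, the direction turned in the 6-library fit, at -0.24. The 5-library value was 0.06, and neither value was called. HPGD, which inactivates prostaglandins, was at 0.472, 0.189 and 0.103 CPM in CDK12KO libraries and 0.512, 0.840 and 0.714 CPM in VEC libraries. All its CDK12KO libraries were lower, but at these low levels the 5-library value of -1.21 ± 0.67 did not pass (edgeR adjusted p = 0.221).

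**Figure D3:**
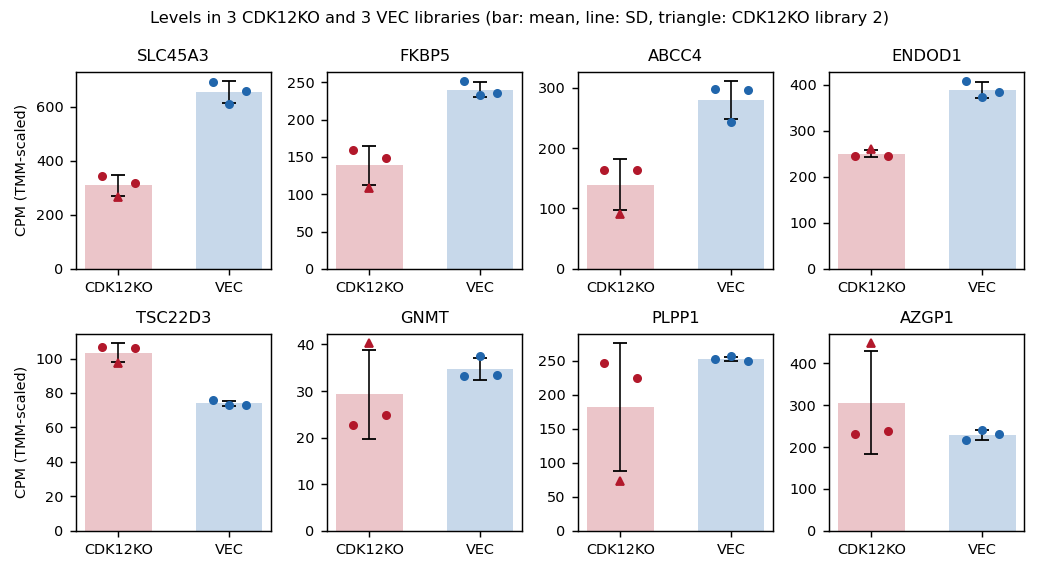
Levels of 8 androgen receptor targets in CPM on axes that start at 0, with bars for the mean of 3 libraries, lines for the SD, points for libraries and a triangle for CDK12KO library 2. SLC45A3, FKBP5, ABCC4 and ENDOD1 are lower and TSC22D3 higher in all 3 CDK12KO libraries, while in GNMT, PLPP1 and AZGP1 library 2 departs from the other 2 CDK12KO libraries.

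Signalling and trafficking genes made up the largest group, with 6 of 9 lower and 0 higher in the 5-library fit, and 0 called in the 6-library fit, where 4 were lower and 0 higher at an unadjusted p under 0.05, DESeq2 called FKBP5 alone and limma-voom called 0. FKBP5 (ENSG00000096060.15, chromosome 6, 35573585 to 35728583) encodes FKBP51, an HSP90 cochaperone that acts in steroid receptor complexes and is a classical readout of androgen and glucocorticoid action. CDK12KO libraries held 159, 109 and 148 CPM and VEC libraries 251, 234 and 235 CPM. The groups were well separated, with VEC libraries within a narrow range. FKBP5 fell by 0.65 ± 0.07 in the 5-library fit (log2, edgeR adjusted p = 2.18e-06, at most 0.000462 over its alternatives), and its value in the 6-library fit was -0.79 ± 0.17 (edgeR adjusted p = 0.108).

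NDRG1, a stress and differentiation gene that is also induced by hypoxia, held 54.9, 13.3 and 46.1 CPM in CDK12KO libraries and 82.6, 79.6 and 71.9 CPM in VEC libraries. LRIG1, a transmembrane inhibitor of EGF receptor family signalling, held 4.63, 0.755 and 4.81 CPM in CDK12KO libraries and 9.01, 7.50 and 12.3 CPM in VEC libraries. In both genes all CDK12KO libraries were lower and library 2 was by far the lowest. In the 5-library fit NDRG1 fell by 0.63 ± 0.09 (edgeR adjusted p = 7.26e-05) and LRIG1 by 1.03 ± 0.21 (edgeR adjusted p = 0.00159) in log2 units, and with all 6 libraries the values were -1.03 ± 0.45 (edgeR adjusted p = 0.236) and -1.48 ± 0.57 (edgeR adjusted p = 0.217). LRIG1 shares exonic bases with the opposite-strand gene SLC25A26. With the sum of the stranded columns, 2.38 times its count, the LRIG1 value in the 5-library fit was -0.74. That sum can hold reads of SLC25A26.

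CAMKK2, a calcium-dependent kinase upstream of AMPK, held 92.2, 101 and 87.1 CPM in CDK12KO libraries and 116.3, 105.2 and 120.3 CPM in VEC libraries, which gave -0.35 ± 0.08 in the 5-library fit (edgeR adjusted p = 0.00282, and 0.0946 with CDK12KO library 1 as the only knockout library) and -0.28 ± 0.12 with all 6 (edgeR adjusted p = 0.230). RAB3B, a GTPase of secretory vesicles, held 64.8, 49.6 and 68.3 CPM in CDK12KO libraries and 82.4, 80.4 and 84.1 CPM in VEC libraries, a 5-library log2 fold change of -0.31 ± 0.07 (edgeR adjusted p = 0.00576, at most 0.125 over its alternatives) beside -0.43 ± 0.14 with all 6 (edgeR adjusted p = 0.204). PMEPA1, a membrane protein that restrains TGF-beta signalling, held 287, 312 and 262 CPM in CDK12KO libraries and 327, 322 and 312 CPM in VEC libraries. The groups of PMEPA1 nearly touched at 311.7 CPM in CDK12KO library 2 and 312.4 CPM in VEC library 3, and its fall of 0.23 ± 0.06 on the log2 scale in the 5-library fit had an edgeR adjusted p of 0.0176 and up to 0.359 over its alternatives. PMEPA1 had -0.16 ± 0.13 in the 6-library fit (edgeR adjusted p = 0.447).

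The other 3 signalling genes did not pass in either fit. TPD52, a prostate cancer gene of vesicle and lipid droplet traffic, ranged from 126 to 130 CPM in CDK12KO and from 140 to 154 CPM in VEC libraries and had a 5-library value of -0.19 ± 0.07 (edgeR adjusted p = 0.0582), with all CDK12KO libraries below all VEC libraries. SGK1, a kinase induced by corticosteroids, held 3.21, 0.629 and 2.74 CPM in CDK12KO libraries and 2.10, 2.13 and 2.09 CPM in VEC libraries, so that libraries 1 and 3 lay above and library 2 below the VEC range. HERC3, a ubiquitin ligase, stayed at 1.10 CPM or less in every library, with overlapping groups.

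A receptor of this class binds an element made of inverted copies of the 6-base site AGAACA, spaced by 3 bases. RefSeq promoter windows (GRCh38.p14, 250 bases before to 50 after a gene start) were at hand for 37 starts of 23 members. The site AGAACA or its reverse complement TGTTCT was in 4 of the 37 windows (10.8%), from the signalling genes FKBP5, PMEPA1 and SGK1, against 14.8% of all 35116 windows. The whole element, AGAACA and 3 bases on TGTTCT, was in 0 of the members' windows and in 1 of all windows, and enhancers outside the windows were not searched. The 4 matches are printed to show what the site looks like beside member genes, as letters only and not as binding sites, with the site in capitals, 5′ to 3′ on the gene's own strand, which is the minus strand in each case.
FKBP5, chr6:35728566-35728595: caccactaccccAGAACAaactcctacctc
PMEPA1, chr20:57711433-57711462: cttgacttctccAGAACAagcctcctggtc
PMEPA1, other start, chr20:57710789-57710818: acctgaagaatgTGTTCTtgtagcactcct
SGK1, chr6:134177839-134177868: ggggttcataacAGAACAgggatagccgtc

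Of the 8 transcription regulators, 3 fell, 1 rose and 4 did not pass in the 5-library fit, and none passed in the 6-library edgeR fit (2 lower and 1 higher at an unadjusted p of 0.05, while DESeq2 called MAF, ZBTB16 and TSC22D3 and limma-voom called 0). TSC22D3 was the only member that rose. It encodes GILZ, a leucine zipper protein best known as a glucocorticoid-induced gene, and lies on chromosome X from 107713221 to 107777342. CDK12KO libraries held 107, 97.1 and 106 CPM and VEC libraries 75.7, 73.1 and 73.1 CPM. All CDK12KO libraries were above all VEC libraries, the log2 fold change being 0.52 ± 0.07 in the 5-library fit (edgeR adjusted p = 3.54e-05, at most 0.00224 over its alternatives) and 0.48 ± 0.11 in the 6-library fit (edgeR adjusted p = 0.113).

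MAF, a basic leucine zipper factor, had the largest fold change of the called members but few reads: 1.65, 1.70 and 1.09 CPM in CDK12KO libraries, against 3.74, 3.58 and 4.94 CPM in VEC libraries. In the 5-library fit MAF fell by 1.57 ± 0.29 (log2, edgeR adjusted p = 0.000876), with a 6-library value of -1.46 ± 0.28 (edgeR adjusted p = 0.0851). ZBTB16, the zinc finger repressor PLZF, held 41.8, 42.5 and 41.6 CPM in CDK12KO libraries and 52.8, 57.4 and 63.5 CPM in VEC libraries. CDK12KO libraries were nearly identical in ZBTB16, including library 2, and its 5-library value was -0.48 ± 0.09 (edgeR adjusted p = 0.00108) and its 6-library value -0.46 ± 0.12 (edgeR adjusted p = 0.145). CREB3L4, a membrane-anchored factor of the endoplasmic reticulum, held 113.4, 115.5 and 117.4 CPM in CDK12KO libraries and 129, 137 and 135 CPM in VEC libraries. Its change was the smallest of those called, -0.22 ± 0.07 in the 5-library fit (edgeR adjusted p = 0.0282, up to 0.261 over its alternatives) and -0.21 ± 0.11 in the 6-library fit (edgeR adjusted p = 0.271). Exons of CREB3L4 overlap the opposite-strand genes SLC39A1 and JTB. With the sum of the stranded columns, which can hold reads of these neighbours, CREB3L4 lost its 5-library call.

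The elongation and Mediator genes did not pass in either fit. ELL2, a subunit of the super elongation complex, held 93.3, 92.3 and 96.0 CPM in CDK12KO libraries and 107, 105 and 110 CPM in VEC libraries. Its 5-library value of -0.19 ± 0.07 did not pass (edgeR adjusted p = 0.0602). The ELL partner EAF2 and the zinc finger gene ZBTB10 had overlapping groups and 5-library values of -0.15 ± 0.17 and -0.14 ± 0.09. ZBTB10 ranged from 37.8 to 41.5 CPM in CDK12KO and from 40.9 to 47.2 CPM in VEC libraries. MED28, a Mediator subunit, had values of 0.20 in both fits without passing (5-library edgeR adjusted p = 0.0842), at 57.2 to 58.8 CPM in CDK12KO and 50.1 to 51.1 CPM in VEC libraries, so that all CDK12KO libraries lay above all VEC libraries. The opposite-strand gene FAM184B shares 32.1% of its exonic bases.

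Of the secretory and cell-surface genes, 1 of 5 fell and 0 rose in the 5-library fit. The 6-library edgeR fit called 0, as did DESeq2, limma-voom and an unadjusted p of 0.05. TMPRSS2 (chromosome 21, 41464551 to 41531116) encodes a serine protease of the luminal surface and is the usual fusion partner of ERG in prostate cancer. CDK12KO libraries held 213, 172 and 199 CPM and VEC libraries 249, 224 and 253 CPM. The groups did not overlap but lay close, and TMPRSS2 fell by 0.24 ± 0.07 in the 5-library fit (log2, edgeR adjusted p = 0.0221, up to 0.310 over its alternatives), with a 6-library value of -0.31 ± 0.14 (edgeR adjusted p = 0.236).

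AZGP1, the secreted zinc-alpha-2-glycoprotein, held 232, 448 and 239 CPM in CDK12KO libraries and 217, 240 and 231 CPM in VEC libraries, so that libraries 1 and 3 sat within the VEC range and library 2 stood far above it. ACP3, which encodes prostatic acid phosphatase, had overlapping groups at 7.11 to 10.0 CPM in CDK12KO and 9.85 to 11.0 CPM in VEC libraries. ADAM7, an ADAM family gene best known from the epididymis, and ORM1, an acute-phase plasma protein gene, also overlapped between groups, ADAM7 at 13.5 to 17.2 CPM in CDK12KO and 11.9 to 17.1 CPM in VEC libraries and ORM1 at 1.34 CPM or less in every library.

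All 4 remaining genes fell in the 5-library fit, and in the 6-library edgeR fit none passed, although all 4 had an unadjusted p under 0.05 (DESeq2 called ENDOD1, C1orf116 and MPHOSPH9 and limma-voom 0). ENDOD1 (chromosome 11, 95089810 to 95132645), named for an endonuclease domain, held 246, 260 and 246 CPM in CDK12KO libraries and 407, 372 and 385 CPM in VEC libraries. The CDK12KO libraries were tightly grouped, library 2 with them, and the 5-library value was -0.67 ± 0.07 (edgeR adjusted p = 1.01e-06, at most 0.000128 over its alternatives) beside -0.63 ± 0.13 with all 6 libraries (edgeR adjusted p = 0.0937). C1orf116, known as the specifically androgen-regulated gene, held 159, 143 and 160 CPM in CDK12KO libraries and 229, 214 and 208 CPM in VEC libraries. Its groups were clearly apart, and in the 5-library fit it fell by 0.45 ± 0.07 (log2, edgeR adjusted p = 0.000102), with a 6-library value of -0.50 ± 0.12 (edgeR adjusted p = 0.142).

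MPHOSPH9, a centriole protein that acts in the control of primary cilia, held 42.5, 20.4 and 37.5 CPM in CDK12KO libraries and 71.7, 62.4 and 66.9 CPM in VEC libraries, a 5-library value of -0.75 ± 0.09 (edgeR adjusted p = 1.34e-05) and a 6-library value of -0.999 ± 0.26 (edgeR adjusted p = 0.155). CENPN, a protein of the centromere, held 242, 186 and 236 CPM in CDK12KO libraries and 281, 306 and 293 CPM in VEC libraries (5-library value -0.30 ± 0.06, edgeR adjusted p = 0.00235, and 0.0871 with CDK12KO library 1 as the only knockout library). In both genes every CDK12KO library was lower. The 6-library value of CENPN was -0.41 ± 0.15 (edgeR adjusted p = 0.213). CENPN overlaps CMC2 on the opposite strand, and its stranded columns summed to 2.29 times its count, a sum that can hold reads of CMC2.

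Of the 18 members called in the 5-library fit, 12 were called under all 12 alternatives to it: 11 that fell (SLC45A3, ABCC4, GNMT, FKBP5, NDRG1, LRIG1, MAF, ZBTB16, ENDOD1, C1orf116 and MPHOSPH9) and TSC22D3. The other 6, CAMKK2, RAB3B, PMEPA1, CREB3L4, TMPRSS2 and CENPN, lost the call under at least 1 alternative. Of the 12 alternatives, CAMKK2 and CENPN kept the call in 11, RAB3B in 10, PMEPA1 in 9, TMPRSS2 in 8 and CREB3L4 in 6. With CDK12KO library 1 as the only knockout library the number lower was 11 in place of 17, and with CDK12KO library 3 as the only one it was 13, on the assumption that a lone knockout library varies as the other libraries do.

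Of 20 listed receptor, pioneer and coregulator genes, 5 fell and 1 rose in the 5-library fit and none passed in the 6-library edgeR fit (5 lower and 1 higher at an unadjusted p of 0.05, 1 lower and 0 higher with DESeq2, 0 with limma-voom). FOXA1, the pioneer factor, held 280, 171 and 255 CPM in CDK12KO libraries and 372, 320 and 341 CPM in VEC libraries, a 5-library value of -0.37 ± 0.07 (edgeR adjusted p = 0.00136) and a 6-library value of -0.55 ± 0.20 (edgeR adjusted p = 0.214). The coactivator genes TRIM24 and EP300 and the cyclin gene CCND1 also fell in that fit, by 0.35 ± 0.09, 0.51 ± 0.11 and 0.37 ± 0.07 on the log2 scale, as did the histone methyltransferase gene NSD2, and the Mediator gene MED1 rose by 0.51 ± 0.10. With all 6 libraries, TRIM24 had -0.49, EP300 -0.80, CCND1 -0.37, NSD2 -0.47 and MED1 0.49, none of them called. The list median was -0.08 in the 5-library fit, beside -0.01 over all tested genes.

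Among related steroid receptors, NR3C1, the glucocorticoid receptor, was at 0 counts in 5 libraries and at 0.207 CPM in CDK12KO library 3. NR3C2, the mineralocorticoid receptor, held 6.28, 4.59 and 5.95 CPM in CDK12KO libraries and 2.56, 2.80 and 1.87 CPM in VEC libraries. All CDK12KO libraries were higher, and NR3C2 rose by 1.34 ± 0.23 on the log2 scale in the 5-library fit (edgeR adjusted p = 0.000418), with 1.22 ± 0.25 in the 6-library fit (edgeR adjusted p = 0.0966). Whether NR3C2 has a part in the members' values was not tested.

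Of 4 listed kallikreins, the best-known androgen receptor targets, KLK2 and KLK3 fell in the 5-library fit and 0 rose, and 0 passed in the 6-library edgeR fit (0 at an unadjusted p of 0.05, 0 with DESeq2 and limma-voom). KLK3, which encodes prostate-specific antigen, held 4307, 5847 and 4459 CPM in CDK12KO libraries and 5227, 5092 and 5238 CPM in VEC libraries, with a 5-library value of -0.25 ± 0.07 (edgeR adjusted p = 0.0130) and a 6-library value of -0.09 ± 0.23 (edgeR adjusted p = 0.808). Libraries 1 and 3 of the knockout were below and library 2 above all VEC libraries. KLK2 had the same order of libraries, with -0.45 ± 0.06 in the 5-library fit (edgeR adjusted p = 5.30e-05) and -0.24 ± 0.19 in the 6-library fit (edgeR adjusted p = 0.422). The other 2 went the other way without passing: KLK4 had 149, 220 and 157 CPM in CDK12KO libraries and 133, 143 and 133 CPM in VEC libraries (5-library value 0.17 ± 0.07, edgeR adjusted p = 0.0921), and KLK15 also had all CDK12KO libraries above all VEC libraries (0.14 ± 0.11, edgeR adjusted p = 0.441).

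A further list of 79 genes commonly placed in the androgen response, none of them among the 33, gave the wider background of the pathway. In the 5-library fit 36 of 78 tested fell, 5 rose and 37 did not pass, with a median of -0.21. Over all tested genes 8.88% were called lower and 10.2% higher in that fit. In the 6-library fit 0 of 77 passed in edgeR (31 lower and 5 higher at an unadjusted p of 0.05, 16 lower and 1 higher with DESeq2, 2 lower and 0 higher with limma-voom), with a median of -0.25. The BMP receptor gene BMPR1B fell in the 5-library fit by 1.27 on the log2 scale (-1.33 with all 6 libraries, edgeR adjusted p = 0.0510), while HSD17B14, a steroid dehydrogenase gene, rose by 3.13, with 48, 65 and 63 counts in CDK12KO libraries and 1, 8 and 8 counts in VEC libraries (3.34 with all 6 libraries, edgeR adjusted p = 0.0705).

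**Figure D4:**
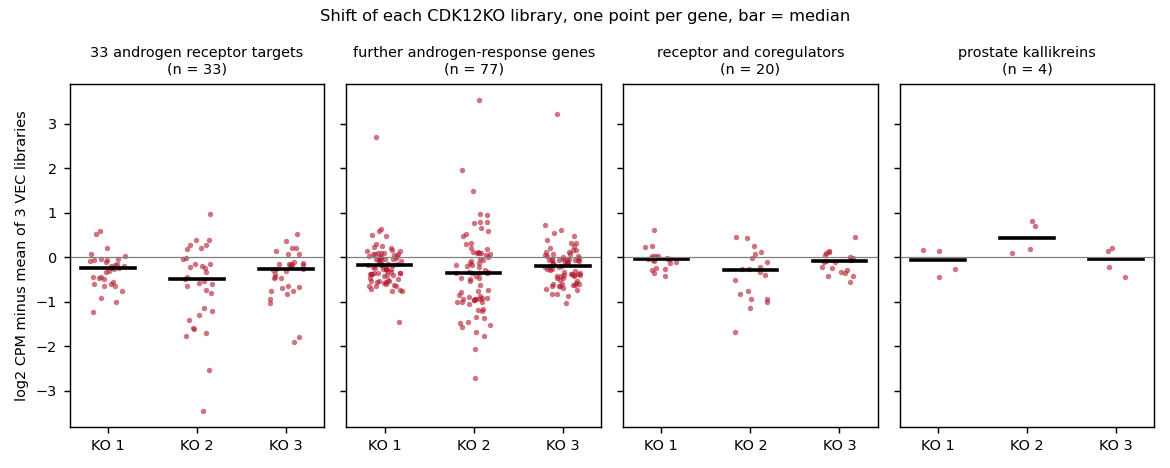
Difference of log2 CPM in each CDK12KO library from the mean of the 3 VEC libraries, 1 point per gene, for the 33 androgen receptor targets, 77 further androgen-response genes, 20 receptor and coregulator genes and 4 kallikreins, with a bar at each median. The medians of the 33 targets are -0.24, -0.49 and -0.28 in CDK12KO libraries 1 to 3, all below 0, and the kallikrein median in library 2 is 0.43.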

How the data were processed

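Bulk RNA of C4-2 cells was sequenced in 3 CDK12KO and 3 VEC libraries, grouped by sample titles. Per the submitters' processing notes, STAR and GRCh38 were used. The annotation release was not given in the sources used here. The deposited files hold raw gene counts as the authors made them, in STAR's layout of 4 summary rows (kept out of tests and library sizes, 29.7% to 32.6% of reads), 62696 gene rows and 1 unstranded and 2 stranded columns. The stranded columns had near equal sums (ratios 1.02 to 1.04), so tests ran on the unstranded column. Reads over a gene and its antisense partner are dropped there. In the sum of the stranded columns the reads of both genes cannot be told apart. Total reads were 26357250 to 30732841 in CDK12KO and 24660798 to 25879375 in VEC libraries. No 2 files of a group agreed within sampling noise (chi-square per degree of freedom 3.27 or more).

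Names came from an identifier table, and coordinates, spans and exonic lengths from GENCODE 29. Tests used edgeR 4.0.16 (R 4.3.3) with filterByExpr, TMM, a robust quasi-likelihood fit and Benjamini-Hochberg adjustment over all tested genes at 0.05. SE is the log2 fold change over the square root of F. Log2 CPM used a prior count of 2. Alternatives were RLE factors, other filters, DESeq2 1.42.0, limma-voom 3.58.1, a replicate block, a threshold of 0.01, leaving out each library and, added after the data were seen, the sum of the stranded columns. The fits were tested on counts simulated from their own means and dispersions, with independent libraries. Such counts cannot show how the fits behave with a library that stands apart or a batch shared between groups. Members and lists were chosen with earlier results of these data known. Values in every library are given for members called in either fit, the 3 highest per length, TMPRSS2, FKBP5 and NDRG1. Other members are given by group, and other lists by up to 4 genes with the smallest 6-library adjusted p plus CDK12, FOXA1 and KLK3. Some genes that this rule names are not reported here. Further per-library values and names (SGK1, AZGP1, HPGD, ELL2, KLK2, NR3C1 and CHGA among them) were chosen after they were seen.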

Additional observations from a re-analysis of the deposited data

How the results depend on the processing

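In the 6-library fit the number of members lower was 1. It was 4 with no filter on low counts, 8 with DESeq2, 0 with the replicate block, 0 with the sum of the stranded columns, 0 at an adjusted p of 0.01, and 0 to 17 when 1 library was left out. The number higher was 0, and 1 with DESeq2, and 0 to 1 with 1 library left out. RLE factors, the stricter filter and limma-voom gave 1 lower and 0 higher. In the 5-library fit 17 were lower and 1 higher. The number lower was 11 to 20 when a further library was left out, 21 with the block, and 14 at an adjusted p of 0.01, and the number higher was 2 with the block and 1 to 2 with a further library left out. The 5-library median of -0.28 was -0.23 with the stricter filter, -0.23 with limma-voom and -0.29 to -0.23 with a further library left out. No called member changed sign under any alternative. Over all genes the block gave 5 calls with 6 libraries and 5540 with 5, against 94 and 3123 without it. In the 5-library block VEC library 2 has no partner of its number. The group difference there, also in the member counts, rests on CDK12KO and VEC libraries 1 and 3 only. Leaving out VEC library 2 from the 5-library fit with no block gave 2358 genes lower and 2345 higher. The titles do not say whether equal numbers pair the libraries, and the main fits did not pair them. Deviations from the group means correlated at 0.14, 0.19 and 0.08 for numbers 1, 2 and 3. Each library correlated best with its own number, though for number 3 by a small margin. CDK12KO library 3 had 0.084 with VEC library 3 and 0.062 with VEC library 1, and CDK12KO library 1 had 0.076 with VEC library 3. Deviations within a group sum to 0, so these values are not independent of each other. Whether libraries of equal number share a batch was not tested. HERC3, HPGD and ORM1 lay below the stricter filter and have no value there. Members of low count (LRIG1, MAF, SGK1, HERC3, HPGD and ORM1) have the largest SE of the 33 in the 5-library fit.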

Other observations

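The 33 genes span 3.12 to 281.6 kb with a median of 60.6 kb, against 24.2 kb over tested genes with an annotated span. The 17 that fell in the 5-library fit had a median span of 63.1 kb and the 15 that did not pass 51.3 kb, and all genes lower in that fit had 48.8 kb. These are descriptions with no test.

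Of 6 listed genes that androgen is known to repress, OPRK1 was at 0 counts in every library and 5 were tested. UGT2B15 and UGT2B17, near copies that inactivate androgens, rose in both fits, DDC fell in the 5-library fit by 0.26 on the log2 scale (-0.18 with all 6 libraries, not called), and MET and CAMK2N1 did not pass in either. The 7 listed neuroendocrine markers summed to 3.26 to 6.86 CPM in CDK12KO and 2.47 to 12.1 CPM in VEC libraries. Only 1 of the 7 was tested, with log2 fold changes of 0.65 (6-library) and 0.25 (5-library), not called in either fit. The neuroendocrine marker CHGA was at 0 CPM in all CDK12KO libraries and at 7.32, 0.168 and 0.0549 CPM in VEC libraries 1 to 3, so that VEC library 1 differed from the other VEC libraries in this gene.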
